A study of Populus trichocarpa
Populus deltoides with 74 samples.

Results

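Of the 217 oligonucleotides on a poplar array, 24 known only by a clone name had a higher mean level in lateral vegetative buds than in shoot tips, by 0.8 or more on the log2 scale. The array table held 183 clone oligos and 34 oligos with a gene-like name, and only clone oligos could be chosen. The 24 were chosen by measured values: each oligo's mean over the vegetative bud groups of ages 1, 2, 5 and 6 years, less its mean over 12 shoot tip groups, all groups weighing equally. This difference, called the bud difference here, is therefore a description with no test. Neither the files nor the RefSeq gene table of Populus trichocarpa paired any of the 24 IDs with a gene, a position or a sequence, so the oligos are called by their clone names and no role is given to any of them.

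A lateral vegetative bud sits in a leaf axil and holds a small shoot, with its own meristem and leaf primordia, wrapped in bud scales. In poplar such buds form on the growing shoot and rest before they open. A shoot tip in May or June is a shoot apex in the growing season, with a meristem that makes new leaves and stem. A floral bud holds an inflorescence in place of leaves, and poplar trees bear male or female flowers on separate trees after years of juvenile growth.

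Total RNA came from wild-type poplar, labelled as both Populus trichocarpa and Populus deltoides, and was labelled with Cy5 as the only dye. The groups were vegetative buds of ages 1, 2, 5 and 6 and floral buds of age 6 with no stated sex, male vegetative and male floral buds of age 6, and shoot tips of female trees. The tips were taken in May and in June, at ages 1, 2, 5 and 6 from shoots not labelled basal, called upper tips here, and at ages 5 and 6 from basal shoots. The labels give no month for the buds, so organ, month and stated sex cannot be told apart in any comparison of buds with tips. There were 74 arrays from 37 RNA isolations in 19 groups, with 2 wells per isolation and 2 isolations (a and b) per group, except 1 isolation for the June upper tips of age 5. The isolations are called biological replicates in the series' design, but separate trees are nowhere stated, and the p-values measure the spread between isolations. A level in a whole bud or tip cannot tell fewer cells of a type from less RNA per cell.

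The bud labels were checked with 6 homologs of genes that specify flowers in other plants: 2 of APETALA1 and 1 of LEAFY, which set floral meristem identity, 2 of AGAMOUS, needed for stamens and carpels, and 1 of DEFICIENS, needed for petals and stamens. Their mean log2 level was 10.79 in floral buds and 11.28 in male floral buds, and it ran from 5.65 to 6.16 over the shoot tip groups. In vegetative buds it was 6.09, 6.04 and 6.08 at ages 1, 2 and 5, 7.63 at age 6, and 6.88 in male vegetative buds. The vegetative buds of age 6 thus stood above the other vegetative buds in this mean, and the age results of vegetative buds are also given without them. The 6 homologs did not move alike. PTAP1-2A, of APETALA1, was at 9.31 at age 6 against 4.84, 4.13 and 4.03 at ages 1, 2 and 5. PTD, of DEFICIENS, was at 5.98 against 6.23, 6.62 and 5.90. The isolations were clustered by how their paired wells deviated from each other, and the tree was cut into 5 sets (7, 10, 8, 2 and 10 isolations). That number was fixed and not found by the clustering. They are called well sets here, and no label says whether they stem from a plate, a date or anything else. All 10 isolations of the May upper tips and the May basal tips of age 5 formed a set of their own, and the June upper tips lay in 2 others, so month and set cannot be told apart in upper tips. Of the vegetative buds of ages 1 to 6, 7 isolations shared a set with 3 isolations of June basal tips, and isolation b of age 6 lay with the floral and male buds.

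The bud difference ran from 0.82 to 3.65 over the 24 oligos, with a median of 1.10. For 5 of them, UM89TG10, M102E03, R22G04, F068P73Y and F117P48Y, all 8 vegetative bud isolations lay above all 23 shoot tip isolations. The choice of the 24 used these isolations, so the count is a description and supports nothing. The share over all oligos was not counted. UM89TG10 had the largest bud difference, at 3.65. Its vegetative bud isolations had a lowest, median and highest log2 level of 8.87, 9.93 and 10.57, against 4.86, 6.03 and 7.49 in shoot tips. No shoot tip isolation came within 1 log2 unit of the lowest bud isolation for this oligo. M104E08 followed with 2.80, from 7.72, 9.92 and 10.21 in vegetative buds and 5.79, 6.51 and 8.36 in tips. Its ranges overlapped through 1 bud isolation, isolation a of age 1 at 7.72, since the other 7 lay at 9.15 or above. M102E03, with 2.70, ran through 7.63, 8.60 and 9.72 in vegetative buds and 4.60, 5.90 and 7.45 in tips.

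The next 5 oligos lay between 1.43 and 1.74. F115P67Y (1.74) had a lowest, median and highest level of 7.69, 8.65 and 8.93 in vegetative buds and 5.61, 6.86 and 7.79 in tips. G105P48Y (1.52) had 6.18, 7.56 and 8.20 in buds and 4.59, 6.09 and 7.19 in tips, so its lowest bud isolation, again isolation a of age 1, fell among the tips. R22G04 (1.52) had 9.56, 10.11 and 10.47 in buds against 7.62, 8.55 and 9.37 in tips, with no overlap. I012P09P (1.46) had 11.04, 11.66 and 11.86 in buds and 8.70, 10.39 and 11.89 in tips. Basal tips and the May upper tips of ages 1 and 6 lay high in its tip range, and the highest tip isolation, a May basal tip of age 6, exceeded every vegetative bud isolation. UB10CPB06 (1.43) had 8.48, 9.11 and 9.74 in buds and 6.53, 7.81 and 8.53 in tips, and its ranges met only at their ends.

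F068P73Y and F117P48Y, the remaining 2 with no overlap, were less far apart. F068P73Y had 8.59, 8.86 and 9.17 in vegetative buds and 6.94, 7.74 and 8.47 in tips, and F117P48Y 10.12, 10.37 and 11.07 against 9.06, 9.51 and 9.83. At the other extreme, M118F07 had 6.77, 7.69 and 8.60 in vegetative buds but 4.06, 6.55 and 8.91 in tips, so its tips spanned more than the whole bud range. The other 16 had bud differences of 1.25 (M118F07), 1.24 (V009B10), 1.17 (M127F08), 1.13 (UM61TC08), 1.07 (F068P73Y), 1.06 (M124B09), 1.04 (UB60BPD08), 1.02 (M101C11), 1.02 (F110P74Y), 1.003 (F117P48Y), 0.99 (F103P87Y), 0.92 (UM54TA09), 0.91 (V061D11), 0.87 (UA13CPF12), 0.84 (V001G07) and 0.82 (F106P90Y). Just outside the threshold, V002G11 reached 0.78 and M129E09 0.74, so the edge of the list marked no gap. In the other direction, 19 clone oligos were lower in vegetative buds by 0.8 or more, and 7 oligos with a gene-like name were higher by that amount. Clone names beginning with M gave 6 of the 24 out of 17 such clones (35.3%), those with F gave 6 of 30 (20.0%), and those with V gave 3 of 40 (7.5%), where 13.1% of all clone oligos were chosen. No source used here says what these letters mean.

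How far the 24 stood above the tips depended on how arrays were scaled. The values were quantile-normalized, and without that step 16 of the 24 kept a bud difference of 0.8 or more, or 15 when each array was only centred on its median. That centring moved the median bud difference of all oligos from 0.02 to -0.14. The 8 below 0.8 as deposited were V009B10 (0.78), F106P90Y (0.70), F117P48Y (0.65), V001G07 (0.52), UM54TA09 (0.44), M127F08 (0.40), M101C11 (0.31) and V061D11 (0.25). The 4 largest differences moved little: UM89TG10 gave 3.55 as deposited, M104E08 2.72, M102E03 2.74 and F115P67Y 1.83. M101C11 was the brightest oligo of an isolation in 3 of them, both isolations of the vegetative buds of age 2 included, where its scaled level of 14.26 is the ceiling that the normalization sets and not a measured one.

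One bud isolation stood apart. In isolation a of the vegetative buds of age 1, 15 of the 24 oligos had their lowest vegetative bud level, and 21 lay below isolation b of the same age. Most oligos also lay below the partner isolation in isolation b of age 6 (18) and isolation a of age 5 (17). Only 3 and 2 had their lowest level in those. The 2 isolations correlated at 0.941 over all oligos, the lowest of any group, against a median of 0.973. With that isolation left out, 22 of the 24 oligos kept a bud difference of 0.8 or more, the lowest was 0.77, and the median rose from 1.10 to 1.24. The 1 well set that held both organs had 7 vegetative bud and 3 June basal tip isolations. The vegetative buds there were above these basal tips in mean level for 22 of the 24 oligos. They were so by 0.8 or more for 15, with a median of 0.90. Over all oligos 47.9% were above and the median was -0.03. The choice of the 24 used these isolations, so the count is a description and supports nothing. The same tip groups gave 0.86 without regard to sets. M118F07 and UM54TA09 were lower in these vegetative buds than in these basal tips, by -1.11 and -0.47.

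Male vegetative buds, male floral buds and floral buds of unstated sex were not used to choose the oligos, though the shoot tips they are set against were. In male vegetative buds 21 of the 24 oligos had a mean above that of the shoot tips, with a median difference of 1.27 where the median of all 217 oligos was 0.00. Both male vegetative isolations exceeded every shoot tip isolation for 14 of the 24, and 13.8% of all oligos did so. The differences ran from -0.32 (V001G07) to 3.76 (UM89TG10), and F103P87Y and V061D11 were also at or below the tip mean, at -0.04 and -0.09. UA13CPF12 stood out at 3.12: its male vegetative isolations were at 10.36 and 10.48, against 7.04 to 9.29 in the vegetative buds of unstated sex. Male vegetative buds and the other vegetative buds thus differed among the 24, with UM54TA09 higher in male buds by 1.22 and V001G07, F103P87Y and V061D11 lower by -1.16, -1.03 and -1.01, all given as values with no test.

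Most of the 24 were also above shoot tips in floral buds. In male floral buds 20 had a mean above the tips, with a median difference of 1.23 against -0.10 for all oligos, and both isolations exceeded every tip isolation for 14, against 17.1% of all oligos. In floral buds of unstated sex 21 had a mean above the tips, with a median of 1.03 against -0.06 for all oligos, and both isolations exceeded every tip isolation for 9, against 11.5% of all oligos. UM89TG10 was highest of all in floral buds of unstated sex, at 10.70 and 11.41, which lay 4.78 above its tip mean. I012P09P, UB60BPD08 and F103P87Y were below their tip means in both kinds of floral bud. Their differences from tips were -0.27, -0.18 and -0.89 in floral buds of unstated sex, and -0.22, -0.85 and -0.81 in male floral buds.

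Floral and vegetative buds of male trees, neither used in the choice and all in 1 well set, were compared directly at age 6. Of the 24, 1 was higher and 3 were lower in floral buds at an adjusted p under 0.05 (limma's moderated test, Benjamini-Hochberg adjustment over the 217 oligos), where 7.37% of all oligos were called higher and 12.4% lower. M102E03 was at 6.13 and 6.36 in male floral buds and at 8.11 and 8.48 in male vegetative buds, and so fell by 2.05 ± 0.46 (SE, n = 2 and 2 isolations, limma adjusted p = 0.00176). I012P09P was at 10.16 and 9.59 in male floral buds and at 11.27 and 11.78 in male vegetative buds, a fall of -1.65 ± 0.32 (limma adjusted p = 0.000337). Male floral levels of these 2 oligos lay within the range of their shoot tips. For I012P09P, whose tips ran from 8.70 to 11.89, the male vegetative levels did so too. UB60BPD08 fell from 8.63 and 8.66 to 7.51 and 7.59, by 1.09 ± 0.33 (limma adjusted p = 0.0241). F068P73Y went the other way, from 8.51 and 8.43 to 9.46 and 9.66, a rise of 1.09 ± 0.20 (limma adjusted p = 0.00019).

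M102E03, I012P09P and F068P73Y kept a limma adjusted p of 0.0304 or less whichever of the 4 isolations was left out, but the call of UB60BPD08 was lost in each case, with limma adjusted p from 0.0829 to 0.127. The deposited scale, on which the median of all oligos shifted by 0.22 in this comparison, gave 3 of the 24 higher and 2 lower, and turned the balance over all oligos to 10.6% higher and 6.91% lower. With arrays centred on their medians 7.83% of all oligos were called in each direction. The other 20 oligos did not pass the test, with values from -0.77 (F103P87Y) to 1.11 (M101C11), and the median of the 24 was 0.02, against -0.08 for all oligos. In trees of unstated sex, whose vegetative buds had entered the choice of the 24, the same 3 oligos had the largest floral deficits, with no test: UB60BPD08 -1.63, M102E03 -1.60 and I012P09P -1.52. The median there was -0.09, close to the -0.07 of all oligos, and 9 of the 24 were above 0.

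No difference between male and sex-unstated floral buds passed the test for any of the 24, and the share of all 217 oligos called was 0% higher and 0% lower by limma, although 4 of the 24 and 25 of all oligos had an unadjusted p under 0.05. The smallest p-values belonged to UA13CPF12 and V001G07. UA13CPF12 was at 9.63 and 9.98 in male floral buds and at 9.19 and 7.79 in the others, a difference of 1.31 ± 0.36 (limma adjusted p = 0.287). V001G07 was at 9.35 and 9.30 against 9.99 and 10.41, a difference of -0.87 ± 0.29 (limma adjusted p = 0.287). The 2 floral isolations of unstated sex lay 1.40 apart for UA13CPF12. Without isolation a its difference was 2.01, which rested on isolation b alone in that group.

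Age within vegetative buds was compared as ages 5 and 6 against ages 1 and 2. Among the 24, 3 were higher and 1 was lower in older buds, where 15.2% of all oligos were called higher and 14.3% lower, so the 24 were called no more often than the array as a whole. UA13CPF12 had 7.04, 7.71, 7.50 and 7.77 in younger buds and 9.16, 9.29, 8.50 and 8.34 in older ones, a rise of 1.32 ± 0.26 (n = 4 and 4 isolations, limma adjusted p = 0.000309). UM54TA09 had 11.99, 12.23, 11.55 and 11.51 in younger buds and 13.00, 13.15, 12.60 and 12.73 in older ones, a rise of 1.05 ± 0.15 (limma adjusted p = 1.5e-05). M118F07 had 6.77, 7.17, 7.58 and 7.42 in younger buds and 8.60, 8.24, 7.86 and 7.79 in older ones, a rise of 0.89 ± 0.25 (limma adjusted p = 0.00766). For each of these 3 the younger and older isolations did not overlap, and age 5 lay above age 6.

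M102E03 moved in the opposite direction. It had 8.50, 9.55, 9.36 and 9.72 in younger buds and 7.63, 7.91, 8.41 and 8.70 in older ones, a fall of -1.12 ± 0.33 (limma adjusted p = 0.0111) that left the 2 ranges overlapping. The 20 that did not pass had values from -0.79 (F103P87Y) to 0.55 (F110P74Y). Without isolation b of age 1 the fall of M102E03 was -0.86 (limma adjusted p = 0.063), and without that isolation 10 of the 24 oligos were called instead of 4, where the share of all oligos called went from 29.5% to 34.1%. The vegetative buds of age 6 stood apart in the mean of the flower genes. With them left out, 6 of the 24 and 30.4% of all oligos were called, all 4 of the above among them. With the well set as a term all 4 stayed called (limma adjusted p of 0.024 or less). Centring arrays on their medians gave 3 higher and 3 lower, with 10.1% of all oligos higher and 15.7% lower, and the deposited scale 3 higher and 2 lower, with 12.9% and 13.8%.

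Neighbouring ages gave almost no calls. Between ages 1 and 2 none of the 24 was called by limma, where 0.461% of all oligos were called higher and 0.922% lower. Of the 24, 5 had an unadjusted p under 0.05, as did 31 of all 217 oligos. The 24 had a median of 0.28 there and 20 of them were above 0, while the median of all oligos was -0.03, and 21 of the 24 were low in isolation a of age 1, as given above. M101C11 (11.69 and 13.98 at age 1, 14.26 and 14.26 at age 2) and M127F08 (12.36 and 13.07, then 13.23 and 13.27) had the smallest p-values, with differences of 1.42 ± 0.44 and 0.53 ± 0.19 (limma adjusted p = 0.0714 and 0.141). Without isolation b of age 1, 5 of the 24 and 15.7% of all oligos were called, M101C11 with 2.56 and M127F08 with 0.89 (limma adjusted p = 2.2e-05 and 0.00305). Age 1 then rested on isolation a alone, which stood apart and was assumed to vary like the other groups, and the age 2 levels of M101C11 are at the ceiling of the scaling. Between ages 5 and 6, M127F08 was lower at age 6 (12.88 and 12.75 against 13.56 and 13.39, -0.67 ± 0.19, limma adjusted p = 0.0343), where 3.69% of all oligos were called higher and 1.38% lower. That call was lost without any of its 4 isolations, with limma adjusted p from 0.0686 to 0.332. A fit with the set as a term also lost it (limma adjusted p = 0.294).

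In shoot tips the same age contrast was called for 3 of the 24, of which M118F07 was also called in vegetative buds, there in the other direction. In May upper tips 2 of the 24 were lower in older trees and none was higher, where 3.23% of all oligos were called higher and 3.23% lower. V061D11 had 12.85, 12.23, 12.06 and 11.14 in younger May tips and 10.81, 10.18, 12.03 and 11.48 in older ones, a fall of -0.94 ± 0.24 (limma adjusted p = 0.0198). M124B09 had 5.90, 5.87, 5.77 and 6.05, then 4.25, 5.15, 5.72 and 4.88, a fall of -0.90 ± 0.26 with no overlap (limma adjusted p = 0.0398). The call of V061D11 was lost without 4 of the 8 isolations, namely age 1 a, age 2 a, age 5 b and age 6 b, with limma adjusted p from 0.11 to 0.165. M124B09 lost its call without 6 of the 8, both of age 1, both of age 2, age 5 a and age 6 b (0.0822 to 0.229). All 8 isolations lay in 1 set, and in a fit to that set alone neither passed (limma adjusted p = 0.163 for both).

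In June upper tips M118F07 alone of the 24 was called. It had 5.73, 5.87, 5.60 and 6.12 at ages 1 and 2 and 4.09, 4.06 and 4.10 at ages 5 and 6, a fall of -1.75 ± 0.27 (n = 3 and 4 isolations, limma adjusted p = 0.000248), where 3.69% of all oligos were called higher and 4.15% lower. The 3 older isolations, of which age 5 is a single one, lay within 0.04 of each other and under the younger isolation means. As deposited, the older means were less alike, at 3.915 for age 6 and 3.755 for age 5. The 2 wells of the younger isolation age 1 b lay 3.05 apart for this oligo, so its level there is uncertain. The tips of age 1 formed a well set of their own, and without them the fall of M118F07 was -1.77 (limma adjusted p = 0.00293).

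Whether the age difference in vegetative buds itself differed from that in upper tips was tested as a contrast of the 2 differences, with May and June weighing equally. With the sign of older minus younger kept, the difference was called higher in buds than in tips for 4 of the 24 and lower for 1. Over all oligos 12% were called higher and 11.1% lower. Higher here does not mean a larger change with age. M118F07 differed most, by 2.07 ± 0.31 (n = 23 isolations, limma adjusted p = 3.5e-05), from a rise in buds and lower values in older tips of both months (-0.62 in May, not called, and -1.75 in June). UM54TA09 differed by 1.06 ± 0.19 (limma adjusted p = 0.000224), with 0.37 in May and -0.41 in June tips, neither called. M102E03 differed by -1.33 ± 0.41 (limma adjusted p = 0.0206), with -0.70 in May and 1.12 in June tips, neither called. Its call was lost without vegetative bud isolations age 1 b, age 2 b, age 5 a or age 6 a (limma adjusted p from 0.0508 to 0.0656). UA13CPF12 and M127F08 also passed, with 0.89 ± 0.32 and 0.47 ± 0.16 (limma adjusted p = 0.0468 and 0.0429), and lost the call without 16 and 17 of the 23 isolations. The age differences of M127F08 were 0.16 in buds, -0.30 in May tips and -0.31 in June tips, none called. Without the vegetative buds of age 6, all 5 stayed called (limma adjusted p from 6.6e-05 to 0.014), and M127F08 gave 0.80 in place of 0.47. As deposited and with arrays centred on their medians, 2 of the 24 were higher and 2 lower, where 8.29% and 7.37% of all oligos were called higher and 11.5% and 13.8% lower.

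Position on the tree was compared in shoot tips of ages 5 and 6, basal against upper within each month and age. Of the 24, 9 were higher and 1 was lower in basal tips, where 29% of all oligos were called higher and 17.1% lower, so basal and upper tips differed widely over the array. M118F07 showed by far the largest difference. Its 8 basal isolations had a lowest, median and highest level of 7.26, 8.57 and 8.91, and its 7 upper isolations of 4.06, 4.46 and 7.24. Basal tips were thus higher by 3.31 ± 0.18 (limma adjusted p = 8.7e-13), and the ranges came close only between 7.24 and 7.26. By month and age the difference was 3.40 and 0.50 in May at ages 5 and 6, and 4.73 and 4.60 in June, so it was small only in May tips of age 6, whose upper isolations were at 6.84 and 7.24. The June basal tips, at 8.82 and 8.68 at ages 5 and 6, lay above the highest vegetative bud group, which was at 8.42.

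I012P09P had basal levels of 10.41 to 11.89 (median 11.03) and upper levels of 8.71 to 10.86 (median 9.22), a rise of 1.41 ± 0.17 in basal tips (limma adjusted p = 2.8e-07). It rose by a like amount in each month, 1.40 in May and 1.43 in June. UM54TA09 rose by 1.29 ± 0.11 (limma adjusted p = 2.2e-09), with 0.57 in May and 2.00 in June, and M124B09 by 0.92 ± 0.20 (limma adjusted p = 0.000464), with 1.74 in May and 0.09 in June. The other 5 that rose were F115P67Y, G105P48Y, M127F08, UM61TC08 and UB10CPB06, by 0.57 to 0.85. M127F08, with 0.60, gave 0.20 as deposited and 0.18 with arrays centred on their medians, and neither passed (limma adjusted p = 0.0713 and 0.12). The call of G105P48Y was also lost on both scales (limma adjusted p = 0.0543 and 0.0531) and with only the groups compared (0.0563), and that of UB10CPB06 with wells as separate arrays (0.125). V001G07 was lower in basal tips by -0.58 ± 0.15 (limma adjusted p = 0.00393), with 0.07 in May and -1.22 in June. The differences between months were not tested. Basal and upper tips shared a well set only at age 5. There M118F07, I012P09P, UM54TA09 and M124B09 differed by 3.40, 2.03, 1.13 and 2.04 in May (2 and 2 isolations, all called). In June these oligos differed by 4.63, 1.32, 2.16 and -0.02 (1 and 1). The call of V001G07 was lost without the 1 isolation of June upper tips of age 5 (-0.41, limma adjusted p = 0.0593), and G105P48Y lost its call without any of 8 of the 15 isolations. The 14 that did not pass had values from -0.43 (UA13CPF12) to 0.41 (F106P90Y). Both other scalings, under which the median of all oligos shifted by -0.13 and -0.15, gave 7 of the 24 higher and 2 lower. Over all oligos the excess of higher calls was gone there, with 23.5% higher and 21.2% lower as deposited and 21.7% and 22.1% with arrays centred on their medians.

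Month was compared in upper tips, June against May within each age. Of the 24, 9 were higher and 2 were lower in June, where 17.1% of all oligos were called higher and 18.9% lower, and the median of the 24 was 0.25 against -0.01 for all oligos. M104E08 had a lowest, median and highest level of 7.16, 7.68 and 8.36 in 7 June isolations and of 5.79, 6.12 and 6.84 in 8 May isolations. It rose by 1.56 ± 0.26 with no overlap (limma adjusted p = 7.3e-05), and its difference at each age was 1.19 to 1.81. UM89TG10 had 5.24, 7.11 and 7.47 in June and 4.86, 5.86 and 6.27 in May, a rise of 1.02 ± 0.35 (limma adjusted p = 0.025) with some overlap. So the pair of oligos with the largest bud difference was also higher in June than in May tips. Their June tips still lay below every vegetative bud isolation, apart from M104E08 in isolation a of age 1. The call of UM89TG10 was lost without May isolations age 2 b or age 6 b, or June isolations age 2 b, age 5 b or age 6 a (limma adjusted p from 0.0549 to 0.0739).

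The other 7 that rose in June were R22G04, F068P73Y, M101C11, F110P74Y, F117P48Y, UA13CPF12 and V001G07, by 0.29 to 0.80. M118F07 fell by 1.14 ± 0.18 in June (limma adjusted p = 6.9e-05), from -2.96 at age 6 to -0.16 at age 2. UB60BPD08 was lower by -0.46 ± 0.18 (limma adjusted p = 0.0486), a call that was lost without any of 12 of the 15 isolations and with the isolation letter as a block (0.0528). R22G04 and M101C11 lost their calls without the 1 June isolation of age 5 (limma adjusted p = 0.0816 and 0.143). F110P74Y and F117P48Y lost theirs without 11 and 10 of the 15. The 13 that did not pass had values from -0.33 (I012P09P) to 0.37 (V061D11).

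The 24 oligos shared their choice but not a common course over the buds. Over the 7 bud group means, the median Pearson correlation of the 276 pairs was 0.07, and it ran from -0.90 (UM54TA09 with V061D11) to 0.93 (UM54TA09 with UA13CPF12). After the latter, the most alike pairs were V061D11 with V001G07 (0.89) and UA13CPF12 with F106P90Y (0.88). These are descriptions over 7 points that share isolations and sets. UM54TA09 and UA13CPF12 were both highest in male vegetative buds, at 13.57 and 10.42, and both rose with age in vegetative buds. V061D11 and V001G07 were highest in vegetative buds of age 2, at 13.16 and 10.86, and lowest in male vegetative buds, at 11.67 and 9.20. Over the 10 tested comparisons, 21 of the 24 were called at least once, where 75.1% of all 217 oligos were. V009B10, F103P87Y and F106P90Y were never called.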

How the data were processed

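Levels were read from the deposited table of the series, which holds a value per oligo and array for 217 oligos and 74 arrays. The authors' values were taken as log2 intensities because they ran from 1.10 to 16.25; the log base, scanner, background correction and any earlier normalization are not given in any source used here. The printed human and Arabidopsis control oligos could not be told by ID and stayed in the table. Missing values (216, 1.35%) stayed missing; 23 of them fell on 11 of the 24 oligos, and every isolation still had a value for each. Array medians ran from 8.05 to 8.79, so the arrays were quantile-normalized (limma 3.58.1, R 4.3.3). The 2 wells of an isolation were averaged; wells correlated at a median of 0.966. The small number of isolations and oligos limits the precision.

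A linear model with a mean per group was fitted to all 37 isolations and 217 oligos (18 residual degrees of freedom). Contrasts were tested with limma's moderated test, two-sided, with Benjamini-Hochberg adjustment across all 217 oligos per comparison; a call is an adjusted p under 0.05. The fit was run on simulated data with independent noise for each oligo and isolation. That run checks the computation and not how well the model suits these data. Differences in level between vegetative buds of unstated sex and shoot tips, and of any other bud group from either, were given with no test. Contrasts within these vegetative buds, contrasts within the tips and the difference of their age differences were tested, although the means of these groups entered the rule. The 24 oligos and the lists were chosen with earlier results of these data known.

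The text names every one of the 24, gives isolation values for the 8 largest bud differences, and in each comparison names up to 2 called oligos with the largest rise and up to 2 with the largest fall, or the 2 smallest p-values where none was called. Other calls are named as calls past this rule, after their values were seen. Well sets came from complete-linkage clustering of the differences between wells, after the data were seen, with the number of sets fixed at 5. Alternatives were the deposited scale, median centring, wells as separate arrays, only the groups compared, filters on missing and dim oligos, the isolation letter as a replicate block, the set as a term, and each isolation left out.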

Additional observations from a re-analysis of the deposited data

Results flagged for a closer look

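For 5 of the 24 oligos the difference between older and younger trees was not the same in vegetative buds and in upper shoot tips, by a direct test of the difference of both age differences (limma's moderated test, adjusted over 217 oligos, 23 isolations). Of all oligos 23% were called in this test. M118F07 gave 2.07 ± 0.31 (limma adjusted p = 3.5e-05), UM54TA09 1.06 ± 0.19 (limma adjusted p = 0.000224) and M102E03 -1.33 ± 0.41 (limma adjusted p = 0.0206). UA13CPF12 gave 0.89 ± 0.32 (limma adjusted p = 0.0468) and M127F08 0.47 ± 0.16 (limma adjusted p = 0.0429), and both of the latter were lost on the deposited scale and with arrays centred on their medians. With isolations left out one at a time, M102E03 lost its call in 4 of 23 fits, UA13CPF12 in 16 and M127F08 in 17. The vegetative buds and the upper tips came from different well sets. The part of the sets in these differences was not tested because the set could not be fitted as a term. Groups held at most 2 isolations, so no single isolation was tested as lying far from its group.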

How the results depend on the processing

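Counts of calls among the 24 oligos changed by over 1.5 times in the following settings. The share of all oligos called moved with the setting too. A count with no such share beside it is no result about the 24 as such. This covers the fits with wells as separate arrays, to only the groups compared, and without missing or dim oligos. It also covers the set as a term and the ranges with isolations left out. In the main fit 1.38% of all oligos were called for ages 2 against 1 and 5.07% for ages 6 against 5. Age in May tips had 6.45% and age in June tips 7.83%. On the deposited scale, ages 2 against 1 gave 1 call (1.84% of all oligos), ages 6 against 5 gave 0 (2.3%) and age in May tips 1 (4.61%). With arrays centred on their medians, ages 6 against 5 gave 0 (2.3% of all oligos), age in May tips 1 (4.15%) and age in June tips 2 (10.6%). On that scale 15 of the 24 kept a bud difference of 0.8. With wells as separate arrays (consensus correlation 0.209), age in vegetative buds gave 8 calls, ages 2 against 1 gave 1, ages 6 against 5 gave 3, male floral against vegetative buds 7 and age in June tips 2. Fits to only the groups compared gave 6 for ages 6 against 5 and 0 for age in May tips. Of the 24, 13 had no missing value, and these gave 1 for ages 2 against 1, 6 for basal tips, 7 for June, and 0 for age in May and in June tips. Without the dimmest oligos (the lowest 0.25 of the array by mean level, 3 of the 24 among them), ages 2 against 1 gave 1, age in May tips 1 and age in June tips 2. With the set as a term ages 6 against 5 gave 0, and the term could not be fitted for basal tips, June, age in June tips or the difference of age differences. In settings chosen after seeing the data, age in May tips gave 0 within its set, and age in June tips 2 without age 1 (7.83% of all oligos). Fits of ages 6 against 5 within 1 set, and of basal tips within the set of June tips, left 1 isolation in a group. Their counts are not given. Basal against upper tips turned sign for M124B09 within the set of June tips (-0.021) and for V001G07 in May alone (0.0682). With each isolation left out in turn, calls ranged from 4 to 10 for age in vegetative buds, 0 to 5 for ages 2 against 1 (5 without age 1 b), 0 to 0 for ages 6 against 5, 3 to 3 for male floral buds and 0 to 3 for male against other floral buds (3 without floral isolation a). They ranged from 8 to 11 for basal tips, 6 to 10 for June (6 without June age 5 b, 7 without May age 6 b), 0 to 2 for age in May tips, 1 to 3 for age in June tips (3 without age 5 b) and 2 to 6 for the difference of age differences. Differences of isolation a minus b correlated between groups at a median of -0.01 over 153 pairs of groups. They ran from -0.27 to 0.30, with 34 pairs over 0.1, so pairing by letter among some groups cannot be told. The replicate block moved no count by over 1.5 times. Of 42 single results, 23 lost no call in any planned setting or with any isolation left out. That count includes results not called in the main fit. Some of these gained a call, as M101C11 did for ages 2 against 1 on the deposited scale. The table gives no background, so how far a level stood above it is unknown.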
